A study of Homo sapiens with 6 samples.

Results

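A set of 10 genes of the centromere and the kinetochore was followed in A549 cells, a human lung adenocarcinoma line, after transient silencing of NME2. They are CENPA, CENPN, CENPU, NDC80, NUF2, SPC24, SPC25, ZWINT, CENPF and MAD2L1, and were chosen by name with earlier results of these data known. Every probe set annotated with 1 of these 10 symbols and no other was taken, which gave 20 of the 54613 probe sets on the array. On this array a transcript is read out by a set of short DNA probes, whose combined signal gives its level (a probe set). In 3 arrays the cells had received small interfering RNA duplexes against NME2 (NME2-depleted), and in 3 they had received control duplexes (control). Both groups were the same line, and silencing was transient, so the cells were a transfected population and not a selected clone. Nothing in the sources describes separate cultures, so p-values measure only the spread between these arrays.

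The kinetochore is the protein assembly that joins a chromosome to the spindle. It is built on nucleosomes in which the histone H3 variant CENPA replaces H3. A constitutive inner layer, the CCAN (constitutive centromere-associated network), recognises these nucleosomes. An outer layer that is assembled for mitosis holds the NDC80 complex, the main microtubule-binding unit, and unattached kinetochores recruit the checkpoint protein MAD2L1 to delay anaphase. Many of these genes are transcribed mostly in G2 and mitosis, under the DREAM and MuvB complexes, which bind a promoter element named the cell cycle genes homology region (CHR).

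The silenced transcript was first examined, as a check of the labels. Its probe set, which carries the symbols NME2 and NME1-NME2 (the read-through transcript of neighbouring genes), had signals of 1920.4, 3675.9 and 3215.7 in the NME2-depleted arrays and 17861.6, 19388.9 and 21044.5 in the control arrays. The log2 difference, NME2-depleted minus control, was -2.78 (SE 0.19, limma adjusted p = 0.00032). All 6 epithelial markers examined passed the filter on dim probe sets, and their summed signal was 75537.4 to 82809.1 in control and 74011.8 to 81010 in NME2-depleted arrays. After depletion 3 of them were lower and 3 higher on average, from -0.24 for KRT8 to 0.71 for EPCAM on the log2 scale. None passed the threshold (limma adjusted p = 0.209 for KRT8 and 0.088 for EPCAM). Markers of other cell types were much dimmer in sum, although EPCAM alone, at 380.9 to 836.9, overlapped the fibroblast marker COL1A1, at 328.4 to 586. Of 3 leukocyte markers 2 passed the filter (CD3E and CD14, not PTPRC), with sums of 353.9 to 445.5 in control and 280.2 to 430.9 in NME2-depleted arrays. Of 5 endothelial markers 1 passed (PECAM1, not VWF, CDH5, KDR or TEK), with sums of 212.4 to 314.1 and 286.4 to 394.6. Of 5 fibroblast markers 3 passed (COL1A1, DCN and LUM, not COL1A2 or COL3A1), with sums of 587.2 to 782.8 and 773.6 to 907.5. These 3 fibroblast markers had higher means after depletion, with a median log2 difference of 0.46, but none of them passed the threshold (limma adjusted p from 0.456 to 0.973). The part of such markers in the values below was not tested.

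None of the 10 genes passed the test for a change on NME2 depletion, although the mean signal after depletion was below that of control for 9 of 10. The brightest tested probe set stood for each gene, and the differences ran from -0.44 for ZWINT and SPC25 to 0.16 for CENPN on the log2 scale. The median was -0.21, against 0.00064 over all 12406 genes tested, of which 49.8% were lower on average. Both values leaned on control replicate 1, without which 7 of 10 genes were lower, SPC24 and MAD2L1 joined CENPN on the higher side, and the median was -0.11. The genes were chosen with earlier results of these data known, so the count of lower genes and the median are a description, not a test. The limma adjusted p-values of the 10 genes lay between 0.287 and 0.985. Over all genes 0.54% passed (67 of 12406) and 0.395% passed with a lower level, so a count of 0 in 10 does not set these genes apart from the rest. Without adjustment 1 of the 10 genes, ZWINT, had a p under 0.05, as did 15.0% of all genes. The signals of the groups overlapped for every one of the 10 genes, whereas they did not overlap for 20.6% of all genes. The intervals were wide for the dim genes. For SPC24 the 95% interval reached a difference of -1.23, so a level down to 0.426 of control lay within the interval.

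**Figure D1:**
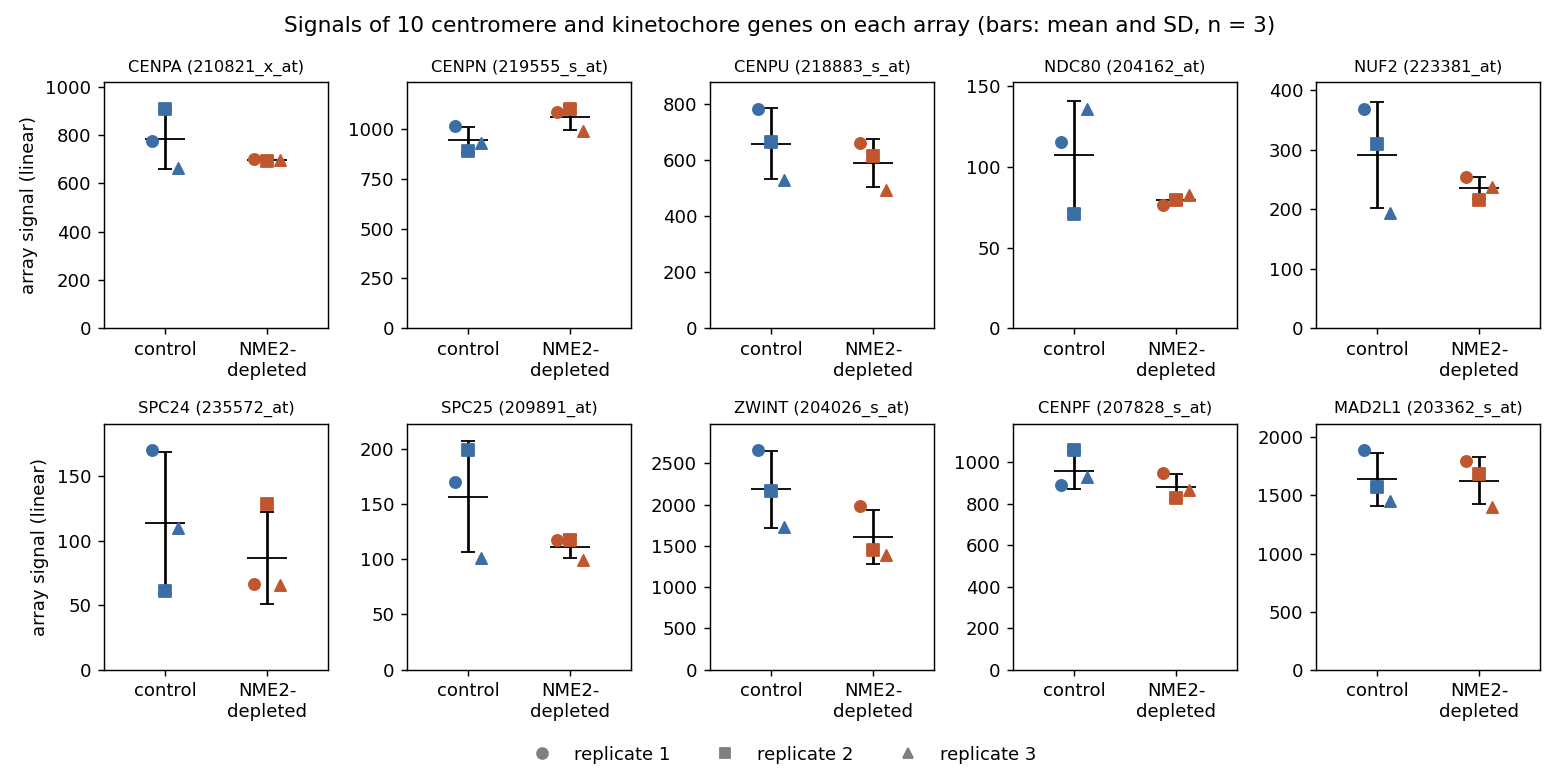
Array signals on a linear scale for the brightest probe set of each of the 10 genes, in 3 control and 3 NME2-depleted arrays. Points are arrays, their shape gives the replicate number, and bars give the mean and SD. In all 10 panels the groups overlap, and ZWINT has means of 2184.7 in control and 1605.1 in NME2-depleted cells.

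The promoters of these genes are shown first. Promoter sequence was not a criterion in the choice of genes. Many of them are of the kind bound at a CHR, however, so the shares below are not independent of that choice and are a description. RefSeq promoters (GRCh38.p14, 250 bases before to 50 after the annotated start) were found for 10 of 10 genes and searched on both strands for the CHR (TTTGAA), its variant TTCGAA, the CCAAT box (CCAAT) and an E2F core (TTCCCGC). The CHR was present in 8 of 10 members and in 15.2% of all 35116 promoters. The CCAAT box was present in 8 of 10 members and in 34.6% of all promoters, and both together in 6 of 10 members and in 5.90% of all promoters. In CENPU and SPC24 no CHR letters lay in this window, and both had a CCAAT box. The E2F core was present in 3 members, CENPA, CENPN and SPC25, and in 6.55% of all promoters. All promoters include those of genes that were not tested here, so this is an unlike set. Among tested genes other than the members, of 12406 tested in all, the E2F core was in 1269. The CHR was in 1399 of them, the CCAAT box in 4316 and both in 575. Among the promoters of 33 other kinetochore genes, the CHR was in 10, the CCAAT box in 18, both in 5 and the E2F core in 7. A match to so few letters describes the sequence and does not show that a factor binds there.

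The sites below are printed 5′ to 3′ along the gene, with the CHR in capitals and up to 12 bases on each side. TTCAAA is the same element read on the opposite strand.
CENPA, chr2:26786026-26786055 on the plus strand: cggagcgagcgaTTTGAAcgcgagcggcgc
CENPN, chr16:81007205-81007234 on the plus strand: gcaattggtggcTTTGAAggcgcggcgagc
NDC80, chr18:2571542-2571571 on the plus strand: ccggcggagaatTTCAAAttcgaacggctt
NUF2, chr1:163321958-163321987 on the plus strand: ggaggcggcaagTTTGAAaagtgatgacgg
SPC25, chr2:168890416-168890445 on the minus strand: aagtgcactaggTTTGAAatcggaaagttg
ZWINT, chr10:56361273-56361302 on the minus strand: gtcgactgtgacTTCAAAgtaatcttaggg
CENPF, chr1:214603223-214603244 on the plus strand: ggctgcgggcagTTTGAAttag
MAD2L1, chr4:120066807-120066836 on the minus strand: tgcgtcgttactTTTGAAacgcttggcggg

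All 8 elements lay close to the annotated start. Their first base was 18 bases before it in CENPA, 17 in ZWINT and 3 in NDC80 and SPC25. It was the base numbered 4 after the start in CENPN, 17 in NUF2, 25 in MAD2L1 and 41 in CENPF, counting the start as 1. SPC25 had another CHR 247 bases before its start, and in NDC80 the variant TTCGAA followed the CHR directly. The stretches before the start of CENPA and ZWINT show how the elements are arranged, with CHR, CCAAT boxes (ATTGG on the opposite strand) and E2F core in capitals.
CENPA, chr2:26785816-26786055 on the plus strand: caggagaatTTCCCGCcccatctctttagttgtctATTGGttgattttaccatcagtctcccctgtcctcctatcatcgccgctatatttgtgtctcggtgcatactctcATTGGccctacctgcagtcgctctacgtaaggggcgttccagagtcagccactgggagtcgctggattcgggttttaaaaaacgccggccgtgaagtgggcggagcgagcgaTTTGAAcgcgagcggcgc
ZWINT, chr10:56361274-56361393 on the minus strand: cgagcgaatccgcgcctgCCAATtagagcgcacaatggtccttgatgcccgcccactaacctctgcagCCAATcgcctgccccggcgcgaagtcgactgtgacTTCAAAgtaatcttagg

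In both promoters a pair of CCAAT boxes lies upstream of a single CHR. Among the 1399 other tested genes with a CHR in this window, the median difference on NME2 depletion was -0.01, with 3 genes lower and 1 higher past the threshold. For the 575 with both CHR and CCAAT box it was -0.02, with 1 lower and 1 higher. Over all 12406 tested genes the median was 0.00064 and 67 (0.54%) passed, so these counts do not set genes with a CHR apart.

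CENPA, the histone that marks the centromere, had signals of 699.7, 694.2 and 696.6 in the NME2-depleted arrays and 775.7, 909.8 and 664.0 in the control arrays. The depleted arrays were nearly identical, and control replicate 3 lay below all of them. The log2 difference was -0.16 (SE 0.12, limma adjusted p = 0.639), with a 95% interval from -0.43 to 0.11. Another probe set, annotated with both SLC35F6 and CENPA, was not counted among the 20. It had 1213.5, 1172.3 and 1060.5 in NME2-depleted and 1422.3, 1348.3 and 1240.3 in control arrays. These groups did not overlap, and the difference of -0.22 (SE 0.09) did not pass the threshold (limma adjusted p = 0.358).

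The inner kinetochore was represented by CENPN, which contacts the CENPA nucleosome directly, and CENPU, which belongs to the CCAN branch built with CENPO, CENPP and CENPQ. CENPN was the 1 member with a higher mean in NME2-depleted cells. Its brightest probe set had 1082.4, 1100.3 and 986.8 in the NME2-depleted arrays and 1012.1, 887.3 and 929.7 in the control arrays. NME2-depleted replicate 3 lay below control replicate 1, and the other depleted arrays lay above every control array. The difference was 0.16 (SE 0.10, limma adjusted p = 0.508). The other tested probe sets of CENPN went the other way. The next brightest, with signals nearly as high, had 839.6, 1008.0 and 786.3 in NME2-depleted and 919.5, 1082.2 and 1079.6 in control arrays, a difference of -0.23 (SE 0.12, adjusted p = 0.438), and the dimmest of the 3 tested had a difference of -0.14 (adjusted p = 0.806).

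The direction for CENPN therefore depended on the probe set. The log2 signal of the brightest minus that of the next brightest was 0.37, 0.13 and 0.33 in the NME2-depleted arrays and 0.14, -0.29 and -0.22 in the control arrays. The groups overlapped only between NME2-depleted replicate 2 and control replicate 1, and the mean shift was 0.39 (exact two-sided permutation test, p = 0.2, n = 3 per group, smallest possible p = 0.1). The remaining CENPN probe set lay under the filter, at 27.5, 24.9 and 25.8 in NME2-depleted and 33.4, 35.2 and 36.3 in control arrays. These groups did not overlap, but signals this dim were not tested.

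CENPU had lower means by all its probe sets. The brightest had 659.1, 611.9 and 492.9 in NME2-depleted and 781.9, 662.7 and 527.4 in control arrays. Both groups spanned much the same range. The difference was -0.15 (SE 0.16, adjusted p = 0.738), and the dimmer ones, in order of brightness, had -0.43 and -0.08 (adjusted p = 0.561 and 0.954).

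For all 4 subunits of the NDC80 complex the mean after NME2 depletion lay below control, and none passed the threshold. NDC80 and NUF2 form the arm that holds the microtubule, and SPC24 and SPC25 form the end that anchors the complex to the inner kinetochore. NDC80 had 76.2, 79.1 and 82.8 in the NME2-depleted arrays, just above the filter's signal of 71.7, and 115.6, 70.7 and 135.9 in the control arrays. Control replicate 2 lay below all depleted arrays, and the other control arrays lay well above. The difference was -0.38 (SE 0.30, limma adjusted p = 0.641). NUF2 had 253.9, 215.9 and 236.6 in NME2-depleted and 368.7, 309.0 and 194.3 in control arrays, a difference of -0.26 (SE 0.22, adjusted p = 0.684). Here control replicate 3 was the lowest of the 6.

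SPC25 was dim as well. Its signals were 117.6, 117.3 and 99.7 in the NME2-depleted arrays and 170.5, 199.2 and 100.8 in the control arrays. Control replicate 3 was level with the depleted arrays, and the difference was -0.44 (SE 0.28, adjusted p = 0.551). SPC24 was too dim and variable for a firm value. Its tested probe set had 66.7, 128.1 and 65.3 in NME2-depleted and 170.4, 60.8 and 109.5 in control arrays, a difference of -0.34 (SE 0.40, adjusted p = 0.776), and without control replicate 1 it was 0.01. The other SPC24 probe set was under the filter, at 47.4, 17.4 and 74.2 against 18.3, 14.7 and 35.8 in control.

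The 4 subunits, which form a complex with 1 copy of each, did not rise and fall together across the arrays. The Pearson correlation of log2 signals over the 6 arrays ranged from -0.23 to 0.85 over the 6 pairs, with a median of 0.10. These values are a description, since the arrays share their groups and the signals of NDC80, SPC24 and SPC25 lie close to the filter.

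ZWINT and CENPF belong to the outer kinetochore, and neither passed the threshold. ZWINT binds the scaffold KNL1 and helps to bring in the checkpoint complex that carries ZW10. It had 1981.7, 1449.4 and 1384.2 in the NME2-depleted arrays and 2662.3, 2167.7 and 1724.1 in the control arrays, or 1605.1 ± 327.8 against 2184.7 ± 469.3 (SD, n = 3). The groups overlapped only in that NME2-depleted replicate 1 was above control replicate 3. On the log2 scale depleted cells lay at -0.44 relative to control (SE 0.16), or 1.36-fold lower, with a 95% interval from -0.80 to -0.08, and the limma adjusted p was 0.287.

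CENPF, a large coiled-coil protein of the outermost kinetochore that accumulates in G2, was measured by probe sets of different brightness. The brightest had 948.9, 827.3 and 864.2 in NME2-depleted and 888.0, 1058.1 and 926.8 in control arrays, a difference of -0.12 (SE 0.10, adjusted p = 0.681). The next had 198.7, 168.2 and 237.3 against 367.7, 223.9 and 282.3, a difference of -0.52 (SE 0.21, adjusted p = 0.344). The latter groups overlapped only between NME2-depleted replicate 3 and control replicate 2. The log2 gap between both probe sets differed by 0.40 between groups (exact two-sided permutation test, p = 0.2, n = 3 per group). The dimmest was under the filter and had 14.9, 24.7 and 16.9 against 4.3, 11.8 and 11.7 in control.

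MAD2L1, the checkpoint protein that inhibits CDC20, was level between groups by its brightest probe set. That probe set had 1793.1, 1688.3 and 1402.2 in NME2-depleted and 1892.1, 1575.5 and 1451.9 in control arrays, a difference of -0.01 (SE 0.12, limma adjusted p = 0.985), with a 95% interval from -0.27 to 0.25. The next brightest had 864.7, 909.8 and 645.5 against 1034.8, 1029.0 and 814.4, a difference of -0.26 (SE 0.14, adjusted p = 0.493). The dimmest had a difference of -0.41 (SE 0.29, adjusted p = 0.589). The log2 gap between the brightest pair was larger in all 3 depleted arrays than in all 3 control arrays, by 0.25 on average (exact two-sided permutation test, p = 0.1, the smallest possible with n = 3 per group). The pairs of probe sets compared in this way were 3 in all, in CENPN, CENPF and MAD2L1, and were chosen after their values were seen.

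**Figure D2:**
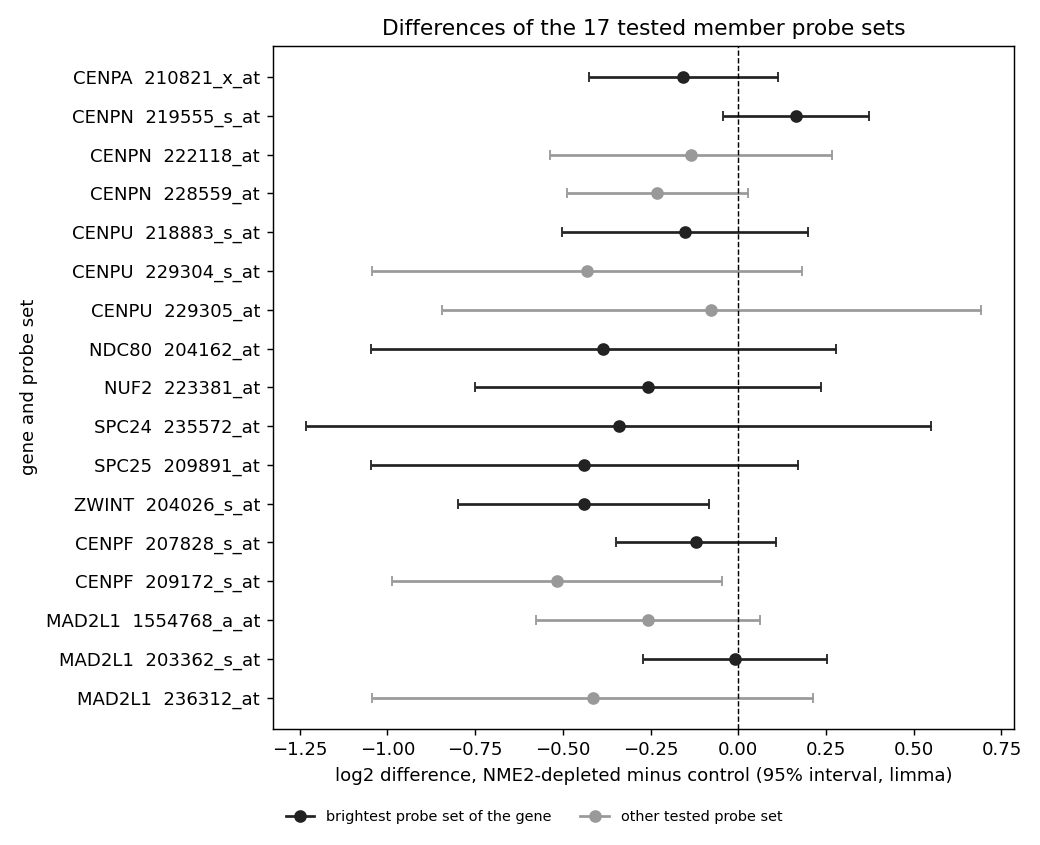
The horizontal axis gives the log2 signal in NME2-depleted cells minus that in control cells, with 95% intervals from limma, for the 17 tested probe sets of the 10 genes. Black points are the brightest probe set of a gene and grey points the others. Of the 17, 16 lie below 0 and the brightest of CENPN lies above it, and 2 intervals, of ZWINT and of the second probe set of CENPF, leave out 0 without adjustment.

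Over the probe sets the picture was the same. They measure the same 10 genes on the same arrays, so their counts are a description and not independent of those of the genes. Of the 17 tested, 16 were lower on average after depletion, 0 passed the threshold by limma and 2 had an unadjusted p under 0.05. Over all 27307 tested probe sets 0.396% passed and 12.9% had an unadjusted p under 0.05. The groups overlapped for each of the 17, whereas 18.6% of all tested probe sets had groups that did not overlap.

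Control replicate 1 stood above the other arrays for these genes. Relative to each gene's mean over the 6 arrays, the mean of the 10 log2 signals was 0.33 in that array, 0.06 and -0.07 in control replicates 2 and 3, and -0.04, -0.05 and -0.23 in NME2-depleted replicates 1 to 3. Of the 10 genes, 5 had their highest signal in control replicate 1 and 4 their lowest in NME2-depleted replicate 3.

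Within both groups the arrays numbered 1 and 3 differed. Among NME2-depleted arrays 7 of 10 genes were highest in replicate 1 and 6 lowest in replicate 3, and among control arrays it was 6 and 6. The 8 proliferation markers examined showed a like order, at 0.29, 0.15 and -0.09 in control replicates 1 to 3 and 0.02, -0.10 and -0.27 in NME2-depleted replicates 1 to 3. In bulk RNA, fewer cells in G2 and mitosis and less RNA per such cell cannot be told apart. RNA quality can be read from the 3′ and 5′ probe sets of ACTB, whose ratio was higher in NME2-depleted arrays (1.33, 1.34 and 1.40) than in control arrays (1.20, 1.30 and 1.23). The same ratio of GAPDH overlapped between groups, at 1.01, 0.985 and 1.06 in NME2-depleted and 0.993, 0.970 and 1.02 in control arrays. The part of RNA quality in these values was not tested.

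**Figure D3:**
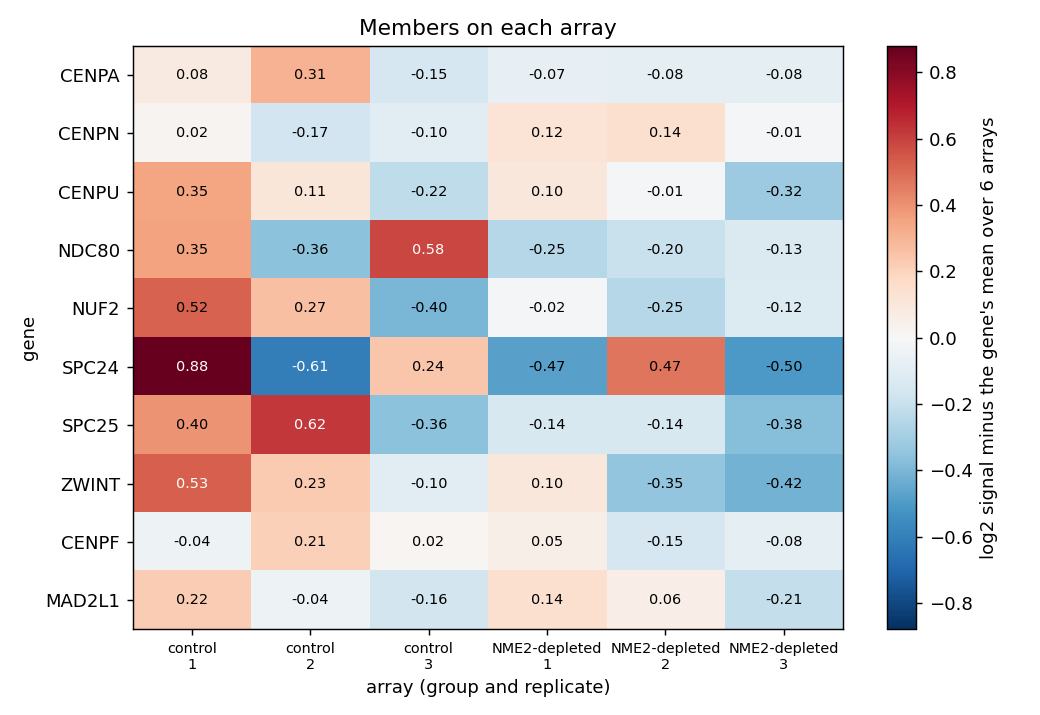
Log2 signal of each of the 10 genes on each array minus the mean of that gene over the 6 arrays, by its brightest probe set (red above, blue below the mean). Rows are genes and columns are arrays. The mean of the column is 0.33 in control replicate 1 and -0.23 in NME2-depleted replicate 3.

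Across all 45 pairs of the 10 genes the Pearson correlation over the 6 arrays had a median of 0.31 and ranged from -0.68 to 0.94, with 30 above 0. The genes whose brightest probe set followed the mean of the 10 most closely, among 12396 others, were MELK, a mitotic kinase (r = 0.996), YIPF1 (0.993), the condensin subunit SMC2 (0.988), HJURP, the chaperone that deposits CENPA (0.988), and TNFRSF14-AS1 (0.983). With 6 arrays and so many genes ranked, high values arise readily, and they are given as a description. None of these 5 genes passed the threshold (limma adjusted p from 0.362 to 0.677).

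The rest of the kinetochore was measured by 39 of 42 listed genes, and 0 of them passed the threshold by limma, with 4 at an unadjusted p under 0.05. Over all genes 0.54% passed and 15.0% had an unadjusted p under 0.05, so these counts do not set the 39 apart. A lower mean was found for 23 and a higher mean for 16, and the median difference was -0.01. In the group that deposits or marks CENPA the mean was lower for all 4 measured genes. HJURP went from 981.6 ± 181.1 in control to 776.7 ± 85.2 in NME2-depleted cells (SD, n = 3), a difference of -0.33 (limma adjusted p = 0.362), and MIS18A, which licenses deposition, had -0.34 (adjusted p = 0.412). The other CCAN genes were evenly divided, with 6 of 12 lower and a median of 0.0025. CENPW, the histone-fold partner of CENPT, had -0.22 and CENPI 0.38 (adjusted p = 0.376 and 0.576). In the MIS12 complex with KNL1, which links inner and outer layers, PMF1 had -0.09 and KNL1 0.11 (adjusted p = 0.721 and 0.849).

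Of the microtubule-coupling SKA complex, the RZZ complex and the corona, 5 of 8 genes had a lower mean. SPDL1, the adaptor that brings dynein to the kinetochore, was higher in every NME2-depleted array, at 3189.5, 2468.9 and 2665.4 against 2239.6, 2198.8 and 1976.3, and its difference of 0.37 (SE 0.10) missed the threshold (limma adjusted p = 0.144). CENPE, a plus-end kinesin, had -0.29 (adjusted p = 0.558). Among 8 other spindle checkpoint genes CDC20, the target of the checkpoint, had -0.27 and TRIP13, which remodels MAD2L1, -0.13 (adjusted p = 0.365 and 0.737). The shugoshins SGO1 and SGO2, which protect centromeric cohesion, had 0.18 and -0.06 (adjusted p = 0.837 and 0.918).

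Of the 50 kinetochore and mitotic genes examined beside the members 1 passed the threshold, against 0.54% of all genes (67 of 12406). This was AURKB, the kinase of the chromosomal passenger complex that corrects attachments. It had 250.1, 253.9 and 206.1 in NME2-depleted and 634.0, 588.7 and 397.0 in control arrays, a log2 difference of -1.17 (SE 0.19, limma adjusted p = 0.0312), and it missed the threshold without each of NME2-depleted replicates 1, 2 and 3 and control replicates 1 and 2 in turn. Its partner CDCA8 had -0.20 (adjusted p = 0.691). The mean was below control for all 8 proliferation markers, and their median difference was -0.19. FOXM1, a transcription factor of G2 and mitotic genes, had -0.52 (adjusted p = 0.058) and the mitotic kinase PLK1 -0.37 (adjusted p = 0.138).

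**Figure D4:**
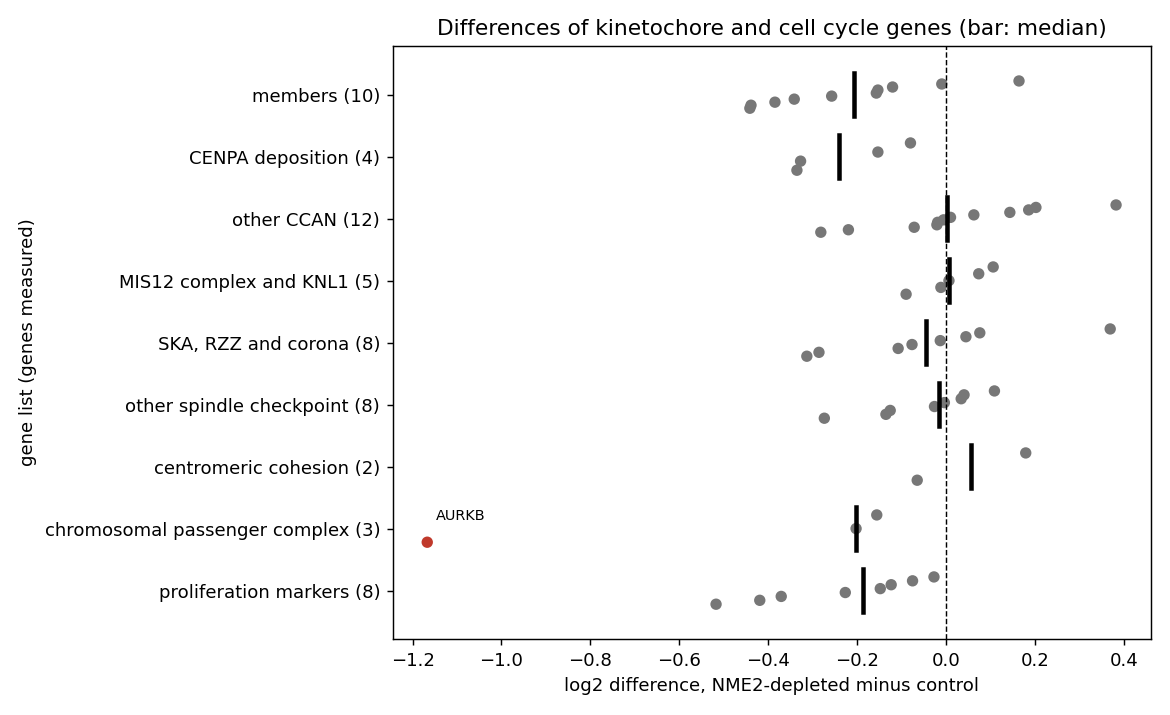
Log2 signal in NME2-depleted minus control cells for the 10 members and 8 other gene lists, with the number of genes measured in parentheses. Each point is a gene by its brightest probe set, the black bar is the median, and red marks the 1 gene past an adjusted p of 0.05, AURKB at -1.17. The members have a median of -0.21, the other CCAN genes 0.0025 and the proliferation markers -0.19.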

How the data were processed

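Total RNA of 3 NME2-depleted and 3 control A549 samples, grouped and numbered by sample title, was hybridised by the authors to 1 Affymetrix HG-U133 Plus 2.0 array each. The authors deposited 1 linear intensity value, called a signal, for each probe set and array. The submitters' processing notes name GCOS 1.1.1, with other settings not given in the sources used here, and the values show that the authors scaled all arrays to 1 mean (500.06 to 500.07 after trimming 2% at each end). Such scaling hides a shift shared by all transcripts. Arrays have no read depth, and their number, 3 per group, limits the precision.

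After 62 control probe sets were removed, signals were floored at 1, which affected 0.327% of values, before log2 transformation. The brighter probe sets, whose mean log2 signal reached the median over all (a signal of 71.7), entered a two-sided limma test (version 3.58.1, R 4.3.3; eBayes after lmFit, the variance prior following the mean signal), with Benjamini-Hochberg adjustment over all 27307 and a threshold of 0.05. Exact permutation tests used scipy 1.17.1. Folds are 2 to the power of the log2 difference. Gene symbols come from the platform annotation, in which 41091 probe sets have 1 symbol, 1801 several and 11721 none. Gene identifiers looked up in RefSeq changed 0 symbols. Listed kinetochore and passenger genes under the filter, such as INCENP, were not tested, and CENPP and CENPS had no probe set of their own symbol. The members and gene lists were chosen with earlier results of these data known. All members are named, with up to 2 genes of lowest p per other list, every called gene, and the 5 genes most like the mean of the members. Transcripts with dim probe sets, such as those of NDC80, SPC24 and SPC25 and the dimmer ones of CENPU, cannot be called absent, since detection calls were not used here.

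On simulated data with 200 of 27307 probe sets changed, limma called 18% at a true change of 1.5-fold, 60% at 2-fold and 92.5% at 4-fold. None of 15 pairs of arrays was a duplicate. Alternatives covered normalization, an offset, filters, shared probe sets, models of the variance, weighting of arrays, a block for replicate number, the methods' t-test, averaging the probe sets of each gene, and leaving out each array.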

Additional observations from a re-analysis of the deposited data

How the results depend on the processing

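The number of changed members was 0 in 19 of 20 alternatives. With the replicate number as a block it was 1, ZWINT (-0.44, limma adjusted p = 0.0312), by genes and by probe sets, while over all probe sets the block raised the calls from 108 to 464. The sample titles give a replicate number and do not say whether equal numbers mark pairs. Deviations from the group means correlated at 0.11, 0.08 and 0.07 for arrays of equal number and from -0.084 to 0.0053 for arrays of unequal number. These values are weak, and whether the arrays were paired was not established. The median difference of the members was -0.34 with shared probe sets left out, -0.29 when the probe sets of each gene were averaged, -0.14 with a filter at the 75th percentile and from -0.29 to -0.11 with an array left out. Of 304 recomputed member values 298 kept their direction and side of the threshold. Where only the choice of probe sets, the variance model, the block or the test was altered, the difference itself stayed fixed. In those settings only the side of the threshold could change. The brightest MAD2L1 probe set changed sign with array weights (0.0025) and ranged from -0.093 to 0.10 with an array left out, as did the dimmest of CENPU (-0.33 to 0.044) and the tested one of SPC24 (-0.73 to 0.013). Among the 50 other genes 1 passed. It was 0 with no filter, no intensity trend or the methods' t-test after adjustment, 3 with the block (AURKB, FOXM1 and TOP2A), 4 with that t-test unadjusted, and 0 to 1 with an array left out. The NME2 difference of -2.78 missed the threshold with no intensity trend (adjusted p = 0.228) and with the adjusted t-test (0.204), where 0 probe sets passed in all. The causes were not tested. The dim signals of NDC80, SPC24 and SPC25 limit what could be detected for them.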
